A study of Homo sapiens with 12 samples.

Results

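The genes described here encode subunits of the mitochondrial respiratory chain and of ATP synthase. They were selected by gene symbol alone, as subunits of complexes I to V with the NDUF, SDH, UQCR, COX and ATP5 prefixes or as protein-coding genes of mitochondrial DNA, with pseudogenes and antisense names dropped. The rule took 100 of the 61806 genes in the deposited table, 87 from nuclear chromosomes and all 13 from mitochondrial DNA. Of these, 92 had enough counts to be tested, 79 nuclear and 13 mitochondrially encoded. The 8 nuclear genes that were not tested are ATP5MF-PTCD1, ATP5MGL, COX4I2, COX6A2, COX6B2, COX7A1, COX7B2 and COX8C.

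The respiratory chain passes electrons from NADH (complex I) and succinate (complex II) through complex III and cytochrome c to oxygen at complex IV, and complex V uses the resulting proton gradient to make ATP. Complex II is built only from nuclear gene products, whereas the other complexes combine nuclear subunits, imported after translation in the cytosol, with hydrophobic core subunits made inside the mitochondrion. Mitochondrial DNA is transcribed as long polycistronic RNAs that are cut at tRNAs, so the amount of each mature mitochondrial mRNA depends on its processing and stability as well as on transcription, and nuclear subunit genes each have a promoter of their own.

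RNA was sequenced from K1 and TPC-1, 2 established human lines of papillary thyroid carcinoma, harvested 24 h after transfection. The 4 groups, of 3 libraries each, were K1 cells given TRIM35 siRNA, K1 cells given negative control siRNA, TPC-1 cells given TRIM35 siRNA and TPC-1 cells given negative control siRNA. TRIM35 is a tripartite motif protein of the ubiquitin ligase family, and glycolysis, the process that supplies the pyruvate used by mitochondria, is named in the title of the study. The TRIM35 siRNA libraries are labelled as knockdown and the control libraries as wild type, both within lines that carry their own tumour alterations. Each line is a single cell population, so a difference between K1 and TPC-1 is a difference between these lines. All libraries carry 1 batch label. Whether replicates came from separate cultures is not given, so the spread that p-values are set against is that of these libraries and may be technical. Since RNA was measured in bulk, fewer cells that express a gene and less RNA per cell cannot be told apart.

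Libraries held between 16705044 and 22928861 counts, with 22526 to 28045 genes detected. TRIM35 itself measured 1.2, 1.49 and 1.53 FPKM (fragments per kilobase of exon, scaled to library size) in K1 siRNA libraries, against 1.51, 1.85 and 1.47 FPKM in K1 control libraries, and 2.34, 2.56 and 2.58 FPKM in TPC-1 siRNA libraries, against 2.86, 2.91 and 3.06 FPKM in TPC-1 control libraries. It was called in neither line by edgeR's quasi-likelihood test with Benjamini-Hochberg adjustment (log2 fold change -0.19, SE 0.17, adjusted p = 1 in K1, and -0.24, SE 0.16, adjusted p = 1 in TPC-1). The siRNA libraries are therefore named by their label. For control library 3 of TPC-1 the title names a different line, while its remaining labels give TPC-1. Of the thyroid markers, PAX8 (95.5 to 129 FPKM in K1, 17.8 to 20.7 FPKM in TPC-1) and FOXE1 were expressed in both lines, whereas NKX2-1 was at 0 in all 12 libraries and TG and TSHR stayed at or below 0.19 FPKM. Among epithelial markers KRT18 lay between 24.7 and 44.6 FPKM and CDH1 at or below 0.02 FPKM. The defining leukocyte and endothelial markers PTPRC, CD3E, PECAM1, VWF and CDH5 stayed at or below 0.21 FPKM.

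Libraries of the same group differed in these genes before any comparison between groups. On the log2 CPM scale (counts scaled to library size), the mean of the 79 nuclear genes lay -0.34, -0.11 and 0.45 from the group mean in K1 siRNA libraries 1, 2 and 3, and 0.31, -0.01 and -0.30 in K1 control libraries 1, 2 and 3. In TPC-1 the values were 0.09, 0.19 and -0.27 in siRNA libraries and 0.15, 0.03 and -0.19 in control libraries. Nearly all nuclear genes moved together, since 78 of 79 were above their group mean in K1 siRNA library 3 and in K1 control library 1, and 1 of 79 in K1 siRNA library 1 and in K1 control library 3. Other genes moved with them. The 79 ribosomal protein genes deviated by -0.37, -0.12 and 0.49 in the K1 siRNA libraries and by 0.33, 0.01 and -0.34 in the K1 control libraries, and the median of the 1542 genes in the shortest of 5 exonic size classes by -0.21, -0.10 and 0.32 in the K1 siRNA libraries and 0.21, 0.00 and -0.20 in the K1 control libraries. Short transcripts are common among the nuclear respiratory genes, 54 of 79 of which have an exonic size of at most 3543 bases, the limit of that class. The mitochondrial genes deviated by at most 0.21 in K1, where siRNA library 3 and control library 1, high for nuclear genes, lay at -0.06 and 0.01. In TPC-1 they deviated by 0.55, 0.05 and -0.60 in siRNA libraries and 0.40, -0.09 and -0.31 in control libraries, so that library 3 was lowest for both sets of genes in both groups. The part of these shared deviations in the results was not tested beyond the values given without single libraries and with an offset for gene size.

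**Figure D1:**
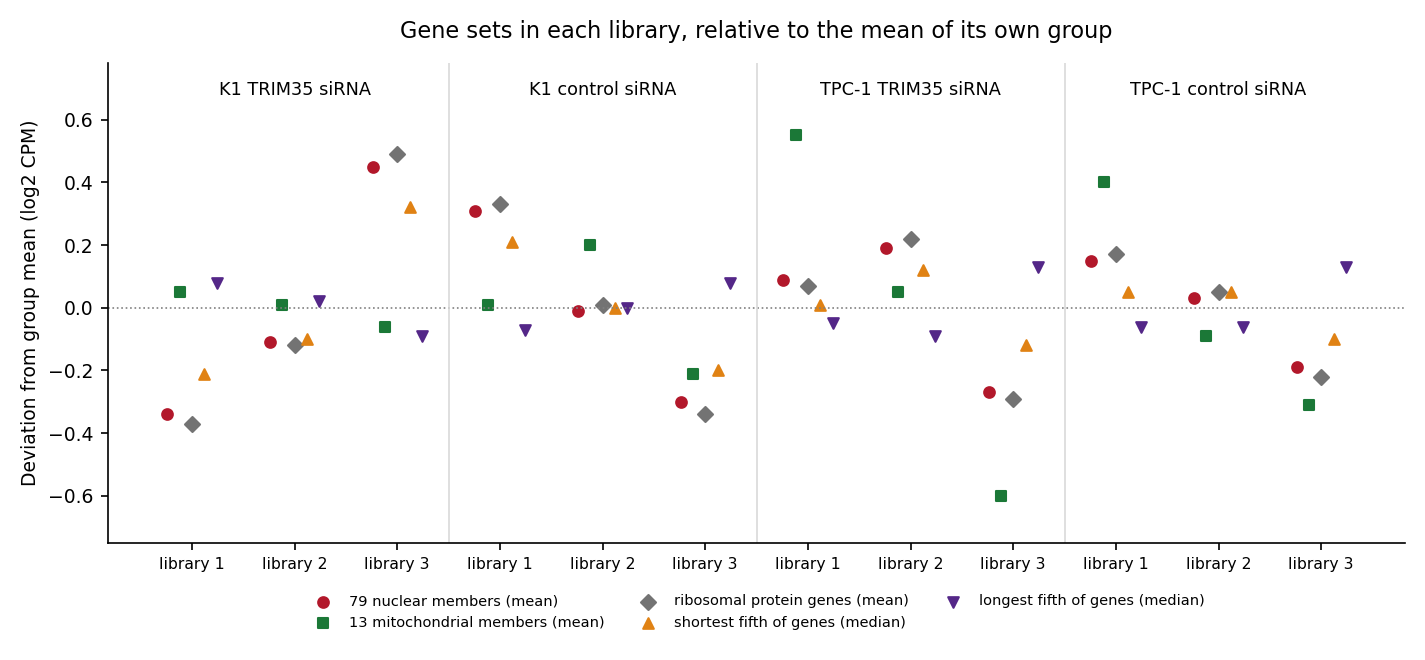
Deviation of gene sets from the mean of their own group, in log2 CPM, for each of the 12 libraries. Nuclear respiratory genes (circles) follow ribosomal protein genes (diamonds) and, less steeply, the shortest genes (upward triangles), reaching 0.45 in K1 siRNA library 3 and -0.34 in K1 siRNA library 1, while mitochondrially encoded genes (squares) spread most in TPC-1, between 0.55 and -0.60.

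As a share of all counts, the nuclear genes together took 0.602% ± 0.122 in K1 siRNA libraries and 0.627% ± 0.0925 in K1 control libraries, and 0.867% ± 0.105 in TPC-1 siRNA libraries and 0.845% ± 0.0813 in TPC-1 control libraries (SD, n = 3 each). The 13 mitochondrial mRNAs took several times more, 2.58% ± 0.259 in K1 siRNA and 2.75% ± 0.318 in K1 control libraries, and 2.76% ± 1.04 in TPC-1 siRNA and 2.44% ± 0.621 in TPC-1 control libraries (SD, n = 3 each). By library the nuclear share ran from 0.503% to 0.738% over the 6 K1 libraries and from 0.748% to 0.947% over the 6 TPC-1 libraries. These unscaled shares did not overlap between the lines, by a narrow margin. The mitochondrial share did overlap, from 2.29% to 3.12% in K1 and from 1.8% to 3.86% in TPC-1. On the log2 CPM scale used above, the mean of the tested nuclear genes overlapped too, from 5.32 to 6.1 in K1 and 5.88 to 6.34 in TPC-1. The ratio of mitochondrial to nuclear counts averaged 4.45 ± 1.25 in K1 siRNA and 4.45 ± 0.764 in K1 control libraries, against 3.15 ± 0.987 in TPC-1 siRNA and 2.86 ± 0.465 in TPC-1 control libraries (SD, n = 3 each). All 3 K1 control ratios (3.58, 5 and 4.78) lay above all 3 TPC-1 control ratios (3.39, 2.69 and 2.51). The siRNA libraries of the lines overlapped, with 5.55, 4.71 and 3.1 in K1 and 4.27, 2.77 and 2.41 in TPC-1.

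**Figure D2:**
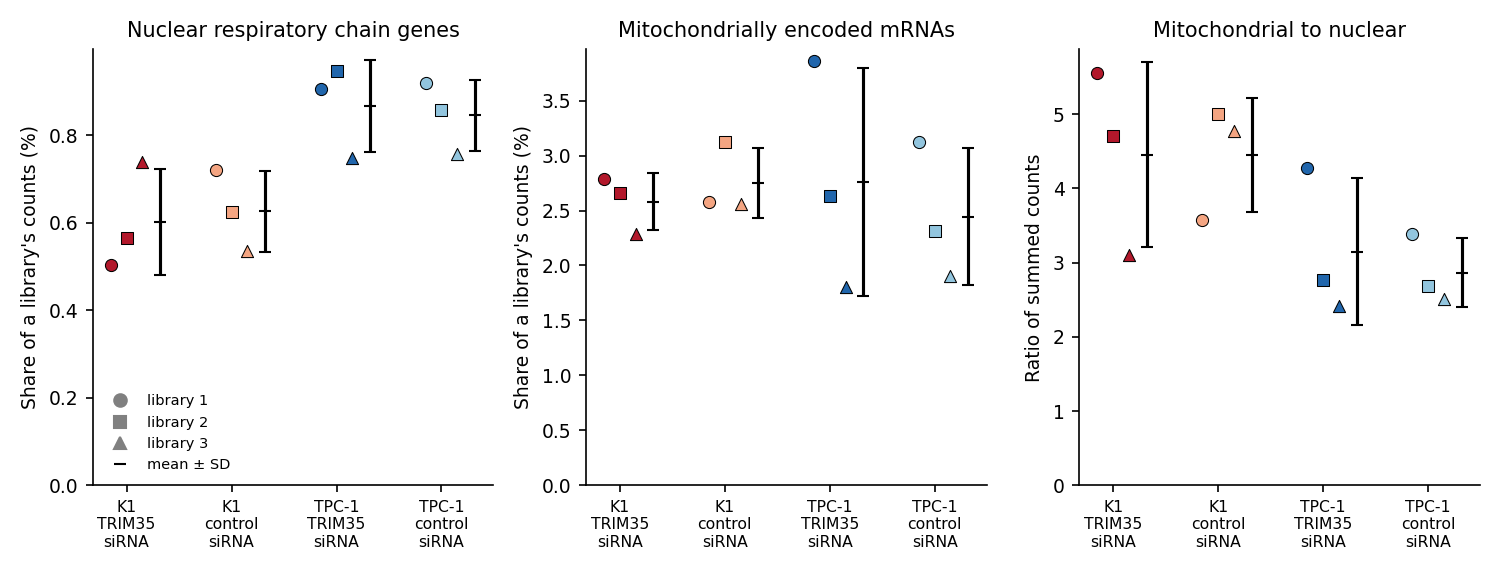
Share of a library's counts in percent from the nuclear respiratory genes (left) and the mitochondrially encoded mRNAs (middle), and the ratio of their summed counts (right), with 1 symbol per library and the mean ± SD of 3 libraries. In these unscaled shares K1 libraries sit between 0.503% and 0.738% for the nuclear genes, narrowly below all TPC-1 libraries, while the mitochondrial shares of the lines overlap.

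Between the lines, nuclear subunit mRNAs were for the most part lower or not called in K1, and few were higher. EdgeR's quasi-likelihood test called 28 of 79 nuclear genes lower (35.4%) and 2 higher (2.53%) in K1 control libraries than in TPC-1 control libraries. Over all 17447 genes tested, 67.9% were called in this comparison, 35.8% higher and 32.1% lower. The share of nuclear respiratory genes called lower is thus near that of all genes, and what differs is the low share called higher. Their median log2 fold change was -0.34, with 62 of 79 below 0, against a median of 0.06 for all genes. Without K1 control library 3 the nuclear median was -0.18, and without K1 control library 1 it was -0.50. In the TRIM35 siRNA libraries of the same lines, 35 of 79 were lower and 2 higher (median -0.46, all genes 0.06), where 68.3% of all genes were called, 35.9% higher and 32.4% lower. With an offset for exonic gene size, which moves the median of all genes to 0.30, the nuclear median was -0.32 relative to all genes, against -0.40 without the offset, but the calls split into 14 higher and 22 lower. In that fit 12299 of all 17447 genes were called in either direction. Their split by direction was not counted, so the 14 higher cannot be set against the share of all genes called higher.

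**Figure D3:**
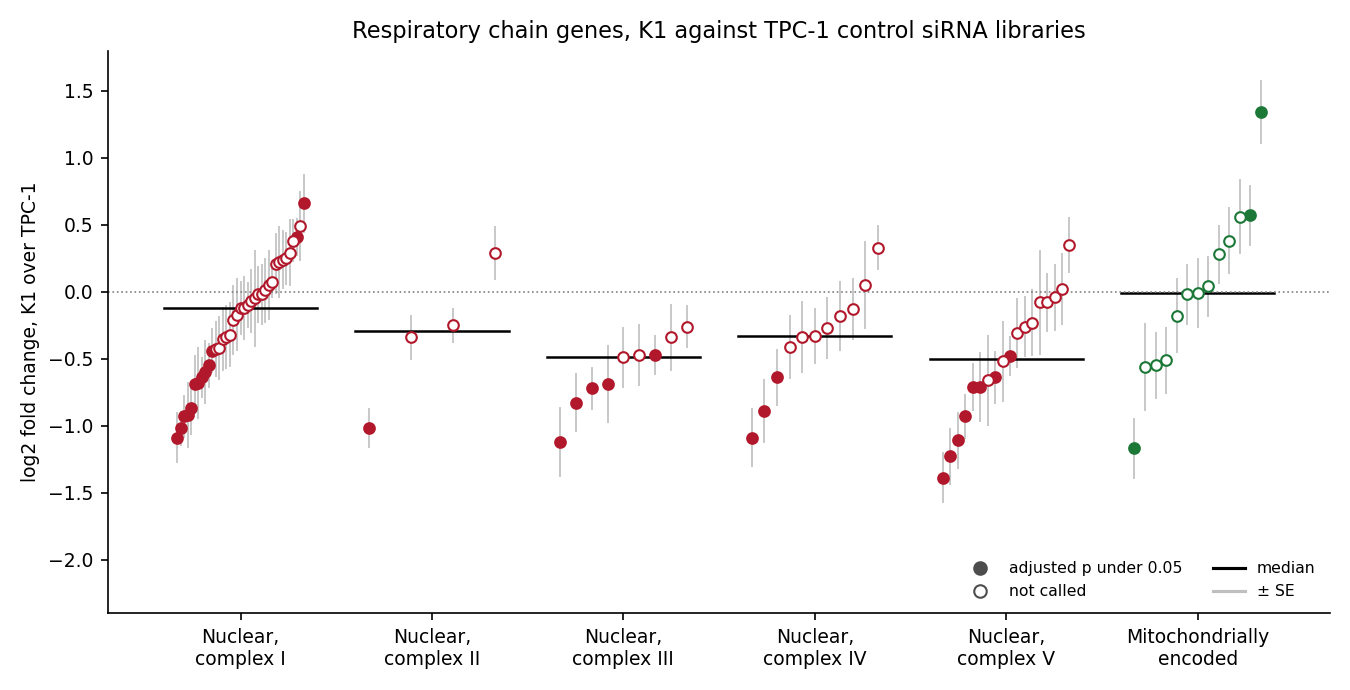
Log2 fold change of each tested gene, K1 over TPC-1 in the control siRNA libraries, with its SE. Genes are grouped by complex as their symbol gives it, with NDUFA4 under complex I (1 point per gene, filled where the adjusted p is under 0.05, bar at the median). Points of nuclear complexes III and V sit mostly below 0, with medians of -0.49 and -0.50, complex I is spread around -0.12, and the mitochondrial genes range from -1.17 to 1.34.

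In complex V, the ATP synthase, 8 of 18 nuclear genes were lower in K1 and 0 higher (median -0.50). ATP5F1A, the alpha subunit of the catalytic head, measured 24.1, 21.8 and 22.8 FPKM in K1 control libraries, against 44.2, 62.8 and 61.8 FPKM in TPC-1 control libraries. Its log2 fold change of -1.39 (SE 0.19, adjusted p = 7.34e-06 by edgeR), a 2.63-fold lower level in K1, was the lowest among the nuclear genes. The beta subunit ATP5F1B, which carries the catalytic sites and pairs with alpha in the same ring, had a smaller difference, with 164, 154 and 153 FPKM in K1 control libraries against 177, 221 and 217 FPKM in TPC-1 control libraries (-0.48, SE 0.15, adjusted p = 0.00899). Both genes were non-overlapping between lines, but with the offset for gene size ATP5F1B lay at -0.17 and was not called. ATP5F1C, the gamma subunit of the rotating central stalk, measured 84.6, 71.9 and 60.3 FPKM in K1 control libraries, against 168, 149 and 122 FPKM in TPC-1 control libraries (-1.11, SE 0.21, adjusted p = 2.42e-04).

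The ring of c subunits, which turns as protons pass, is encoded by 3 genes whose mature proteins are the same. ATP5MC3 measured 23.1, 19.2 and 15.5 FPKM in K1 control libraries and 45.6, 44.6 and 37.2 FPKM in TPC-1 control libraries (-1.23, SE 0.21, adjusted p = 9.19e-05), and ATP5MC1 was also lower (-0.71, SE 0.18, adjusted p = 0.00272). ATP5MC2 lay at -0.31 (SE 0.26) and was not called, with 21.1, 15.9 and 12.2 FPKM in K1 control libraries and 23.5, 18.6 and 15.5 FPKM in TPC-1 control libraries, which overlap. Of the peripheral stalk, which holds the head still, ATP5PB (subunit b) fell by 0.93 (SE 0.17) and ATP5PF (F6) by 0.71 (SE 0.26), while ATP5PO, the oligomycin sensitivity-conferring protein, at -0.26 and ATP5PD (subunit d) at -0.04 were not called. ATP5IF1, the inhibitor that blocks reverse ATP hydrolysis, lay at 0.02 (SE 0.27).

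In complex III, 5 of 9 nuclear genes were lower in K1, 0 were higher, and all 9 lay below 0 (median -0.49). UQCRB, a small ubiquinone-binding subunit, measured 29.04, 25.8 and 20.4 FPKM in K1 control libraries, against 66.7, 47.7 and 40.0 FPKM in TPC-1 control libraries (-1.12, SE 0.26, adjusted p = 0.00137 by edgeR). UQCRFS1, the Rieske iron-sulfur protein that hands electrons to cytochrome c1, measured 19.6, 18.1 and 15.2 FPKM in K1 control libraries, against 29.3, 26.8 and 26.1 FPKM in TPC-1 control libraries (-0.72, SE 0.16, adjusted p = 8.90e-04). The groups did not overlap for either gene. The hinge protein UQCRH fell by 0.83 (SE 0.22) and core protein UQCRC2 by 0.47 (SE 0.15). Its partner UQCRC1 lay at -0.26 (SE 0.16) and was not called, except without K1 control library 1 (-0.45, adjusted p = 0.0234). UQCRHL, a near-identical copy of UQCRH, can share reads with it, and its value of -0.49 (SE 0.23) is uncertain.

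In complex IV, cytochrome c oxidase, 3 of 11 tested nuclear genes with COX symbols were lower in K1 and 0 higher (median -0.33). COX6C, a small membrane subunit, measured 60.7, 54.9 and 39.2 FPKM in K1 control libraries, against 113, 107 and 90.1 FPKM in TPC-1 control libraries (-1.09, SE 0.22, adjusted p = 4.83e-04 by edgeR). COX7B fell by 0.89 (SE 0.24) and COX7A2 by 0.64 (SE 0.21, adjusted p = 0.0136). The COX7A2 call was lost without TPC-1 control library 2 (-0.58, adjusted p = 0.0504) or K1 control library 3 (-0.50, adjusted p = 0.068). COX5A, which lies next to the heme centre subunit, was at -0.34 (SE 0.27) and COX4I1, the regulatory subunit that binds ATP, at -0.33 (SE 0.21). COX7A2L, a factor that joins complexes III and IV in supercomplexes, lay at 0.33 (SE 0.17), with groups that did not overlap but no call (adjusted p = 0.0896).

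Complex IV has subunits with alternative isoforms, and both lines used the ubiquitous ones. COX4I1 lay between 24.5 and 46.1 FPKM over the 12 libraries, whereas COX4I2, the lung isoform, was at 0 in all 6 K1 libraries and all 3 TPC-1 control libraries, and at 0.48, 0 and 0.2 FPKM in the TPC-1 siRNA libraries. COX6A1 lay between 53.7 and 96.7 FPKM and COX6A2, the heart and muscle isoform, at 0 in every library. COX7A2 lay between 28.8 and 65.4 FPKM and the muscle isoform COX7A1 between 0.08 and 0.61 FPKM. COX6B1 (40.5 to 82.0 FPKM) and COX8A (65.5 to 127 FPKM) were likewise the isoforms in use, against at most 0.13 FPKM for COX6B2 and 0.40 FPKM for COX8C, both known from testis. FPKM here divides by the exonic size of the gene (4816 bases for COX4I1, 494 for COX8A), which need not be the length of the mRNA. Levels of different genes can therefore be set side by side only roughly. COX8A was not called (-0.13), but with the offset for gene size it was called higher in K1 (0.29).

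In complex II, succinate dehydrogenase, the membrane anchor SDHC was lower in K1, with 47.0, 43.6 and 42.2 FPKM in K1 control libraries against 73.4, 90.8 and 88.5 FPKM in TPC-1 control libraries (-1.02, SE 0.15, adjusted p = 2.64e-05 by edgeR). Its partner in the anchor, SDHD, lay at 0.29 (SE 0.20), with 94.8, 84.9 and 74.5 FPKM in K1 control libraries and 81.2, 61.0 and 53.8 FPKM in TPC-1 control libraries, which overlap. The flavoprotein SDHA was at -0.25 (SE 0.13) and the iron-sulfur subunit SDHB at -0.34 (SE 0.17), neither called. Without TPC-1 control library 3 SDHA was called lower (-0.35, adjusted p = 0.0377), as was SDHB without K1 control library 1 (-0.48, adjusted p = 0.0286) or K1 siRNA library 3 (-0.34, adjusted p = 0.0427).

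Complex I, the NADH dehydrogenase, was the most mixed, with 11 of 37 nuclear genes lower, 2 higher and a median of -0.12. NDUFA4 carries a complex I name, by which it is counted here, but is now assigned to complex IV. It measured 29.7, 24.2 and 22.2 FPKM in K1 control libraries, against 52.9, 50.6 and 48.9 FPKM in TPC-1 control libraries (-1.09, SE 0.19, adjusted p = 9.40e-05). NDUFB9, an accessory subunit of the membrane arm, measured 4.86, 4.47 and 4.37 FPKM in K1 control libraries and 9.18, 8.77 and 8.18 FPKM in TPC-1 control libraries (-1.02, SE 0.13, adjusted p = 6.05e-06). NDUFS1, the subunit with most of the iron-sulfur clusters that receive electrons from the flavin, measured 9.27, 9.33 and 9.06 FPKM in K1 control libraries and 11.4, 13.4 and 15.5 FPKM in TPC-1 control libraries (-0.64, SE 0.15, adjusted p = 0.00105). None of these groups overlapped.

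The 2 nuclear genes called higher in K1 both encode redox subunits of the peripheral arm of complex I. NDUFV1, the flavoprotein that binds NADH, measured 13.3, 13.2 and 14.1 FPKM in K1 control libraries, against 8.13, 10.6 and 9.81 FPKM in TPC-1 control libraries (0.41, SE 0.14, adjusted p = 0.0145 by edgeR). NDUFS8, which carries iron-sulfur clusters further along the chain, measured 8.52, 6.69 and 5.31 FPKM in K1 control libraries, against 4.6, 4.26 and 3.42 FPKM in TPC-1 control libraries (0.66, SE 0.22, adjusted p = 0.0145). The groups did not overlap for either gene, and both were also called higher in the siRNA libraries (0.39 for NDUFV1, 0.69 for NDUFS8). The NDUFV1 call was lost without TPC-1 control library 1 (0.32, adjusted p = 0.0598), and the NDUFS8 call without TPC-1 control library 3 (0.54, adjusted p = 0.0589) or K1 control library 1 (0.43, adjusted p = 0.0984). NDUFV1 and NDUFS8 start within the same megabase of chromosome 11, at bases 67605653 and 68030617 (hg38). Other genes starting within 2.5 megabases of them also tended to be higher in K1, with medians of 0.55 over 119 neighbours of NDUFV1 and 0.51 over 105 neighbours of NDUFS8.

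Among all 79 nuclear genes, which lie on 22 chromosomes, the fold change and the median of neighbouring genes within 2.5 megabases were related with r = 0.48 (Pearson) and rho = 0.38 (Spearman). Over 17237 other genes the values were 0.22 and 0.21. Neighbours share their genomic segment, and the points are not independent. Of the 28 genes called lower, 15 had a neighbour median below 0 and 13 above. COX7B (-0.85 over 12 neighbours) and NDUFA4 (-1.04 over 7) lay among lower genes, whereas SDHC (0.26 over 56), ATP5MC1 (0.67 over 89) and ATP5F1C (0.32 over 25) were lower among neighbours centred above 0. The copy number of these segments was not measured.

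Promoter sequence was examined because members of the chain are known to share binding motifs for the factors NRF-1, GABP of the ETS family and YY1. RefSeq promoter windows (GRCh38.p14, 250 bases before to 50 after the start) were matched by symbol for 69 of the 79 tested nuclear genes. The letters GCGCATGC (NRF-1 core), on either strand, were in the windows of 14 of 69 genes (20.3%), against 6.13% of the 11811 tested genes with a window and 3.68% of all 27305 genes. The ETS letters CCGGAAG were in 21 (30.4%), against 21.0% of tested and 12.2% of all genes, and the YY1 letters AAGATGGC in 12 (17.4%), against 6.02% and 3.52%. A match is a description of the letters in these windows and not a binding site. The 250 bases before the start of 3 genes are shown as examples of windows with and without these letters, with motif letters in capitals. In the 250 bases before the start, ATP5PB, lower in K1 (-0.93), and the higher NDUFV1 had none of the letters. ATP5PB is nevertheless among the 12 genes with the YY1 letters when whole windows are counted. UQCRH, lower in K1, has the ETS letters 46 bases before its start. Whether motif and direction go together was not tested. ATP5F1C, lower in K1, has the NRF-1 core on both strands in an overlapping run that begins 22 bases before the start (chr10:7787927-7788176, plus strand). NDUFS1, also lower, has the ETS letters 157 bases before the start in the RefSeq window shown (chr2:206159445-206159694, minus strand) and none in its other window. NDUFS8, higher in K1, has none of the motifs in these 250 bases (chr11:68030431-68030680, plus strand).
ATP5F1C: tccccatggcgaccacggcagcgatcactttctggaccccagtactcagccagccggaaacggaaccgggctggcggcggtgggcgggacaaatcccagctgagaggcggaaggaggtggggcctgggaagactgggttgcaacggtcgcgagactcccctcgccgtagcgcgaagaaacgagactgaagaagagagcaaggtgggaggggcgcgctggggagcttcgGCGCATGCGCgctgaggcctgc
NDUFS1: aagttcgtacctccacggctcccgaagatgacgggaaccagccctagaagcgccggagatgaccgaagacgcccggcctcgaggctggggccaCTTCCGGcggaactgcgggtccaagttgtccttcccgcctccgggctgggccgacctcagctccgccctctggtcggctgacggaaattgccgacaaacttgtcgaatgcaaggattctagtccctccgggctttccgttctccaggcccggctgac
NDUFS8: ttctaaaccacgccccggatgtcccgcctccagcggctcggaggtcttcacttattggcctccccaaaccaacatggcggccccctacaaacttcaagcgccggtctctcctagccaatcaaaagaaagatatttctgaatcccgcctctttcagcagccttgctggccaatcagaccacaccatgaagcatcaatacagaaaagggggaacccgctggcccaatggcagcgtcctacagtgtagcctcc

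The mitochondrial genes did not move as a block between the lines. By edgeR's test, MT-ND1 and MT-CO1 were called higher and MT-CO3 lower in K1 control libraries, 10 of 13 were not called, and the median was -0.01 (0.21 without TPC-1 control library 1, -0.16 without TPC-1 control library 3). MT-ND1, a core subunit of the proton-pumping arm of complex I (MT 3307 to 4262, plus strand), measured 3245, 3992 and 3340 FPKM in K1 control libraries, against 1666, 1253 and 986 FPKM in TPC-1 control libraries. Its log2 fold change was 1.34 (SE 0.24, adjusted p = 1.41e-04), a 2.54-fold higher level in K1. MT-CO3, a core subunit of complex IV (MT 9207 to 9990, plus strand), measured 2794, 3010 and 2353 FPKM in K1 control libraries, against 7308, 5453 and 4512 FPKM in TPC-1 control libraries (-1.17, SE 0.23, adjusted p = 2.97e-04), a 2.25-fold lower level in K1. Neither gene's groups overlapped, and both calls were kept under all 25 alternatives, from 1.11 to 1.79 for MT-ND1 and from -1.43 to -0.73 for MT-CO3.

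MT-CO1, the catalytic subunit of complex IV, measured 5190.5, 6416 and 5208 FPKM in K1 control libraries, against 4425, 3309 and 2872 FPKM in TPC-1 control libraries (0.57, SE 0.23, adjusted p = 0.0346). Its call was lost without TPC-1 control library 2 (0.52) or 3 (0.44), without K1 control library 1 (0.60) or 2 (0.47), by limma on FPKM (0.68) and in the siRNA libraries (0.26). MT-CO2, which receives electrons from cytochrome c, lay at -0.55 (SE 0.25, adjusted p = 0.0607), MT-ATP6, the proton channel subunit of ATP synthase, at -0.51 (SE 0.25) and MT-ND3 at -0.56 (SE 0.33). These were not called in control libraries, and all were called lower in the siRNA libraries (-0.83, -0.74 and -0.94), where MT-ND1 (1.11) and MT-CO3 (-1.43) were called as well. MT-CO2 was also called when control library 3 (-0.72), siRNA library 1 (-0.55) or siRNA library 3 (-0.56) of TPC-1, or siRNA library 3 of K1 (-0.55), was left out. For MT-ATP6 the same held for control library 3 (-0.70), siRNA library 1 or siRNA library 3 of TPC-1 (-0.52 for each). MT-ND4L was at 0.56 (SE 0.28) and called when control library 1 (0.89) or siRNA library 3 (0.55) of TPC-1 was left out. MT-ND4 (0.38), MT-ND5 (0.28), MT-ND6 (0.04), MT-ND2 (-0.01), MT-CYB (-0.02) and MT-ATP8 (-0.18) were not called in the main fit. Some calls were gained with other settings. DESeq2 called MT-CO2 (-0.51). Without a filter on low counts MT-CO2 (-0.52), MT-ATP6 (-0.49), MT-ND3 (-0.54), MT-ND4L (0.58) and MT-ND4 (0.40) were called. A fit of only the groups compared called MT-CO2 (-0.54), MT-ATP6 (-0.51) and MT-ND4L (0.56). The range from lowest to highest was 2.51 log2 units over the 13 genes, against 2.05 over the 79 nuclear genes.

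Genome order showed which differences lay next to each other. From MT-CO2 through MT-ATP8, MT-ATP6 and MT-CO3 to MT-ND3 the values were -0.55, -0.18, -0.51, -1.17 and -0.56, and from MT-ND4L to MT-ND5 they were 0.56, 0.38 and 0.28. All genes from MT-CO2 to MT-ND3 were below 0 in both kinds of library, and those from MT-ND4L to MT-ND5 above 0. The latter were not called in either kind by the main fit, and in the siRNA libraries they lay within 1 SE of 0 (0.15, 0.23 and 0.02, SE 0.28, 0.25 and 0.22). With the offset for gene size all were called higher in K1 control libraries, MT-ND4L at 1.07, MT-ND4 at 0.79 and MT-ND5 at 0.63. Of the genes from MT-CO2 to MT-ND3, only MT-CO3 was called in the control libraries. With the offset for gene size the median of the 13 genes was 0.44, or 0.14 relative to all genes. MT-ND6, the only protein-coding gene on the opposite strand, could not be told apart from RNA of the other strand, as no source used here gives strandedness. The large ribosomal RNA MT-RNR2, which precedes MT-ND1, was higher in K1, with 5137, 5079 and 4302 FPKM in K1 control libraries against 3414, 2403 and 2177 FPKM in TPC-1 control libraries (0.77, SE 0.23, adjusted p = 0.00867 by edgeR).

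**Figure D4:**
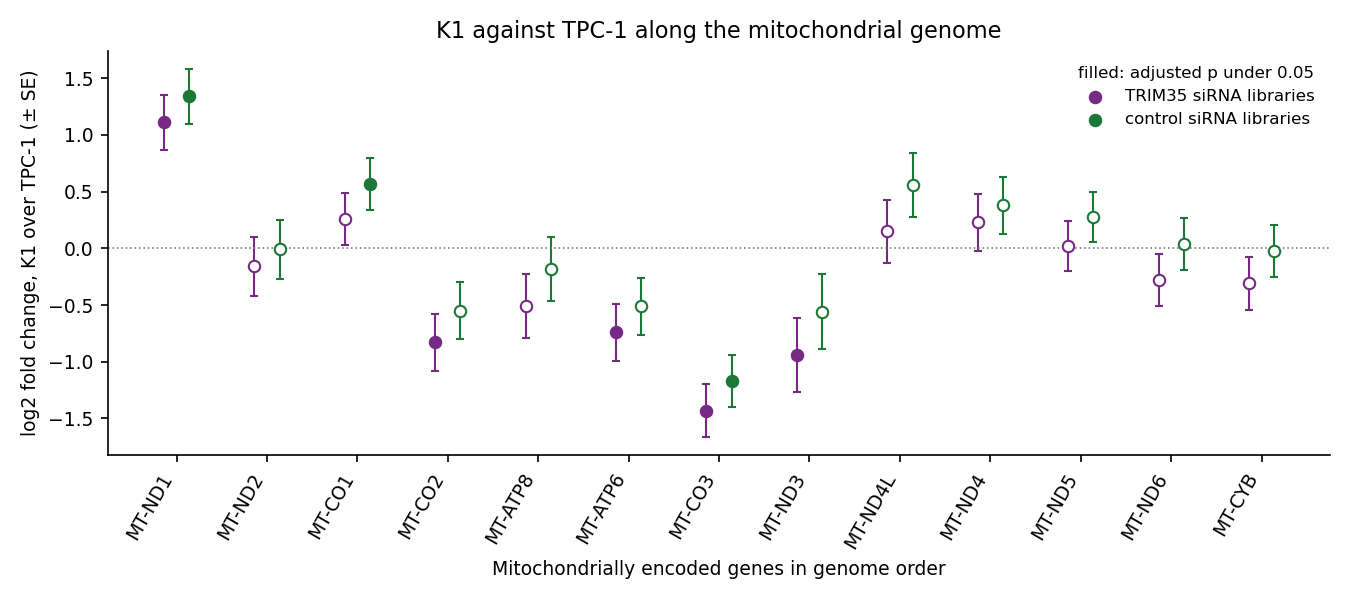
Log2 fold change, K1 over TPC-1, of the 13 mitochondrially encoded genes in genome order, with SE, in the TRIM35 siRNA libraries and in the control siRNA libraries (filled where the adjusted p is under 0.05). In both kinds of library MT-ND1 is the highest (1.11 and 1.34) and MT-CO3 the lowest (-1.43 and -1.17).

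The ratio of MT-ND1 to MT-CO3 FPKM, a pair chosen after these values were seen, does not depend on the scaling of a library. It was 1.31, 1.38 and 0.976 in K1 siRNA libraries and 1.16, 1.33 and 1.42 in K1 control libraries. It was 0.225, 0.193 and 0.198 in TPC-1 siRNA libraries and 0.228, 0.230 and 0.219 in TPC-1 control libraries. The lines did not overlap, and siRNA and control libraries overlapped in both lines. A ratio shows that the 2 mRNAs differ unequally between the lines, and not which of them differs.

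Some reads of mitochondrial genes cannot be assigned to 1 gene. MT-ATP8, an accessory proton channel subunit, and MT-ATP6 share 46 bases of the same strand (GRCh38, MT 8527 to 8572), 22.2% of the 207 bases of MT-ATP8, so that counts of MT-ATP8 depend on how shared reads were assigned. The overlap read from the GENCODE 29 transcripts is shown with the start codon of MT-ATP6 in capitals.
MT-ATP8 and MT-ATP6 overlap: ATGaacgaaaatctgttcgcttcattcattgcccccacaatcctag
MT-ND4L and MT-ND4 share 7 bases, and MT-ATP6 and MT-CO3 share 1. Nuclear copies of mitochondrial sequence also took reads. MTATP6P1 held between 8.61% and 9.40% of the summed counts of itself and MT-ATP6 in K1 siRNA libraries and 7.51% to 8.58% in K1 control libraries, against 6.58% to 7.54% in TPC-1 siRNA and 6.17% to 7.49% in TPC-1 control libraries. MTND2P28 held between 3.13% and 4.57% of its pair with MT-ND2 over all libraries, and the copies of MT-ND1 and MT-CO3 that were examined had at most 5 counts.

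Other genes of the pathway were taken from lists of known function, and they are given for the K1 against TPC-1 control comparison, where 32.1% of all genes were lower and 35.8% higher. Of 7 subunits and electron carriers outside the symbol rule, 6 were lower and 0 higher (median -0.70). CYCS, the cytochrome c that links complexes III and IV, measured 41.5, 35.4 and 32.5 FPKM in K1 control libraries, against 114, 108 and 96.4 FPKM in TPC-1 control libraries (-1.63, SE 0.19, adjusted p = 1.35e-06 by edgeR). CYC1, the cytochrome c1 of complex III, fell by 0.74 (SE 0.19). Of assembly factors, 7 of 17 for complex I were lower and 3 higher, 1 of 4 lower and 0 higher for complex II, 1 of 6 lower and 2 higher for complex III, 10 of 22 lower and 1 higher for complex IV, and 3 of 5 lower and 0 higher for complex V. NDUFAF4 (-1.64), which assembles complex I, was lower and TIMMDC1 (0.89), a membrane factor for the same complex, higher. COX20, a chaperone for the MT-CO2 protein, measured 0.27, 0.28 and 0.29 FPKM in K1 control libraries, against 3.03, 2.22 and 2.69 FPKM in TPC-1 control libraries (-3.33, SE 0.20, adjusted p = 5.82e-10).

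Genes that maintain and transcribe mitochondrial DNA were lower in 10 of 16 cases and higher in 4 (median -0.46), and those that process or stabilise mitochondrial RNA in 11 and 4 of 18 (median -0.76). TFAM, which packages mitochondrial DNA and starts its transcription, measured 12.8, 13.2 and 13.8 FPKM in K1 control libraries, against 28.5, 31.9 and 37.6 FPKM in TPC-1 control libraries (-1.40, SE 0.16, adjusted p = 1.73e-06 by edgeR). MTERF3, a regulator of mitochondrial transcription, fell by 1.43 (SE 0.17) and MGME1, an exonuclease that trims replicating mitochondrial DNA, by 1.04 (SE 0.11). The RNA-binding proteins TBRG4 and FASTKD1, of the FASTK family that binds mitochondrial RNA, fell by 1.48 (SE 0.14) and 1.35 (SE 0.14). Mitochondrial ribosomal protein genes were lower in 38 of 77 cases and higher in 5 (median -0.46), tricarboxylic acid cycle genes in 6 and 2 of 13 (median -0.43), with SUCLG2 of succinyl-CoA ligase higher (1.28, SE 0.16) and fumarase FH lower (-0.98, SE 0.15). Of 12 regulators of respiratory genes, 5 were lower and 3 higher. The medians of the assembly factors were -0.16 for complex I, -0.17 for complex II, -0.18 for complex III, 0.03 for complex IV and -0.51 for complex V, and that of the regulators was -0.25. No test of a list was made.

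After TRIM35 siRNA, no respiratory chain gene was called in either line. EdgeR's quasi-likelihood test called 0 of 92 in K1 and 0 of 92 in TPC-1, where 0% of all 17447 genes was called in each. At an unadjusted p under 0.05 there were 0 of the 92 in both lines, against 136 of all genes in K1 and 337 in TPC-1. DESeq2 and limma on FPKM also called 0 of the 92. In K1 the median of the nuclear log2 fold changes was -0.06, with 13 of 79 above 0, and the mitochondrial genes -0.08, with 1 of 13 above 0. In TPC-1 the medians were 0.05 (57 of 79 above 0) and 0.16 (13 of 13 above 0). The medians of all genes were 0.00 in both. The 95% interval stayed inside a 2-fold range up or down for 77 of 79 nuclear and 13 of 13 mitochondrial genes in K1, and for 79 of 79 and 12 of 13 in TPC-1.

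**Figure D5:**
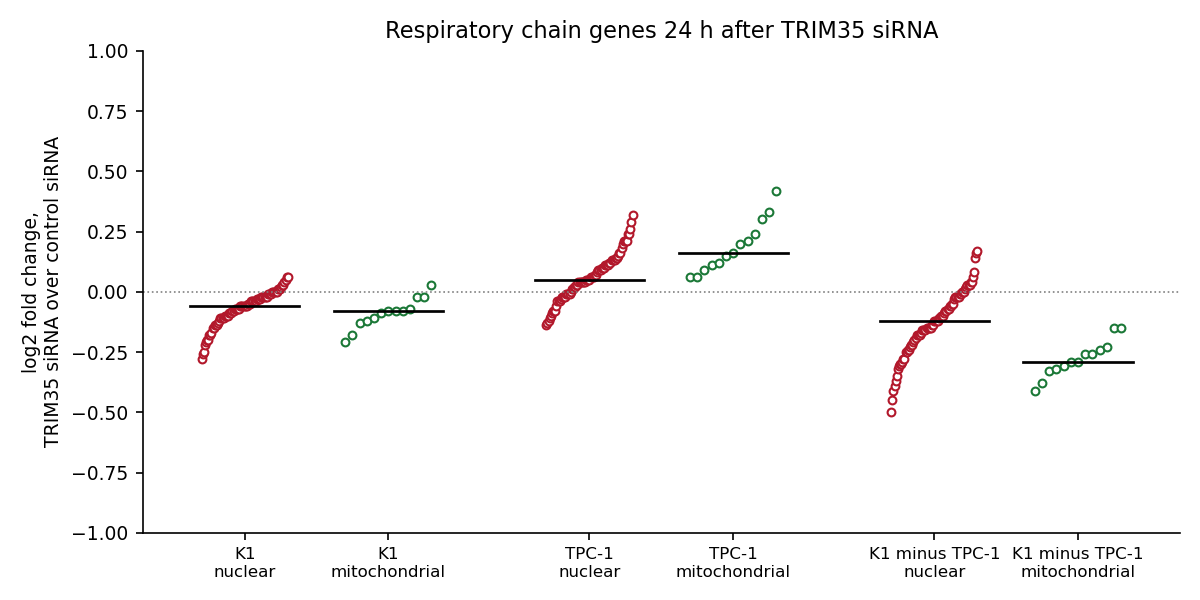
Log2 fold change of each tested respiratory chain gene, TRIM35 siRNA over control siRNA, in K1, in TPC-1 and as the difference K1 minus TPC-1, with bars at the medians. All points are open because none was called; nuclear values run from -0.28 to 0.06 in K1 and from -0.14 to 0.32 in TPC-1.

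The nuclear gene with the smallest p in K1 was NDUFA11, a membrane arm subunit of complex I, at 2.03, 2.63 and 3.63 FPKM in siRNA libraries and 4.13, 2.95 and 3.11 FPKM in control libraries (log2 fold change -0.28, SE 0.23, 95% interval -0.77 to 0.20, adjusted p = 1 by edgeR). The next were NDUFS7 (-0.20), NDUFS3 (-0.22) and NDUFV1 (-0.11), all electron-carrying subunits or their partners in the peripheral arm. In TPC-1 they were NDUFA13 (0.32), NDUFC1 (0.29), NDUFB1 (0.26) and NDUFV2 (0.21). NDUFA13, a small complex I subunit, measured 8.9, 8.3 and 5.5 FPKM in TPC-1 siRNA libraries and 7.66, 6.31 and 4.26 FPKM in TPC-1 control libraries, which overlap. MT-ND3 had the smallest p of all 92 in TPC-1, with 3798, 2523 and 1527 FPKM in siRNA libraries and 2840.0, 1619 and 1413 FPKM in control libraries (0.42, SE 0.33, 95% interval -0.28 to 1.12). MT-ND1 lay at -0.12 in K1 and 0.12 in TPC-1, and MT-CO3 at -0.02 and 0.24.

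The difference between the knockdown effects of the lines, K1 minus TPC-1, was also called for 0 of 92 genes, with 0% of all genes called and 0 of the 92 at an unadjusted p under 0.05. Its median was -0.12 for nuclear genes (66 of 79 below 0) and -0.29 for mitochondrial genes (13 of 13 below 0), against -0.01 for all genes. NDUFC1 (-0.50, SE 0.39), NDUFA13 (-0.45, SE 0.38), NDUFA2 (-0.41, SE 0.37) and NDUFV2 (-0.32, SE 0.31) had the smallest p-values among nuclear genes. The signs of these medians rested on single libraries. In K1 the nuclear median was 0.11 without control library 1, 0.09 without siRNA library 1, 0.02 without siRNA library 2 and -0.31 without siRNA library 3. In TPC-1 the mitochondrial median was -0.16 without siRNA library 1 and 0.42 without siRNA library 3, and the nuclear median -0.05 without siRNA library 2 and -0.03 without control library 3. The mitochondrial median in K1 was 0.02 without control library 2. For the difference, the nuclear median was 0.06 without K1 control library 1 and 0.03 without K1 siRNA library 1, and the mitochondrial median 0.01 without TPC-1 siRNA library 1. Without both K1 libraries 3, which lie at opposite ends for short genes, the nuclear median in K1 was -0.48, with 0 of all 18067 genes called. In that edgeR fit 42 of the 92 had an unadjusted p under 0.05. The share of all genes at that level was not counted, so the 42 cannot be read as particular to these genes. The mitochondrial median in K1 was then -0.12. The mean of the 79 nuclear respiratory genes deviated by 0.45 in siRNA library 3 and by -0.30 in control library 3 of K1, as given above. The cause of the nuclear median of -0.48 was not tested.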

How the data were processed

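RNA-seq libraries of 12 samples in 4 groups were compared. The submitters' processing notes name cutadapt 1.9.1, a read trimmer, and the build hg38. Aligner, counting tool, strandedness and annotation were not given in the sources used here. Both the read counts and the FPKM values were deposited by the authors in 1 table. From the values, the deposited FPKM are counts over exonic size and library total. How reads shared by near-identical copies or overlapping genes were assigned is unknown.

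The deposited counts went into edgeR 4.0.16 (R 4.3.3) after filterByExpr and TMM scaling. A single quasi-likelihood fit of the 12 libraries gave each group its own mean and left 8 residual degrees of freedom. The threshold for a call was an adjusted p (Benjamini-Hochberg, 17447 genes) under 0.05. An SE is the size of the log2 fold change over the root of its F value. The script was tested on simulated data. Alternatives used DESeq2 1.42.0, limma 3.58.1 on log2(FPKM + 0.1) or log2(FPKM + 1), other scalings and filters, and fits without single libraries. Deviations used log2 CPM with a prior count of 2. Replicate libraries differed by more than sampling noise (chi-square per degree of freedom 3.97 to 58.9).

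Named genes were all mitochondrial members, complex IV isoform pairs, a set of core subunits, up to 8 called nuclear genes per direction between lines by size of change, the 4 nuclear genes with the smallest p in each knockdown and in their difference, and up to 3 called genes of each other list. Further genes named in the text complete a complex and were chosen after their values were seen. The members and lists were chosen with earlier results of these data known.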

Additional observations from a re-analysis of the deposited data

How the results depend on the processing

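The 0 calls in both knockdowns and in their difference held under all 24 alternatives. Between the lines, nuclear genes called lower numbered 20 to 36 over 25 alternatives, against 28. Those called higher numbered 4 with genes at a mean FPKM of at least 1 and by limma with either pseudocount, 5 in a fit of only the groups compared, 6 without both K1 libraries 3, 14 with an offset for gene size, and 1 to 6 with single libraries left out, against 2. Mitochondrial genes called higher numbered 4 without a filter on low counts, 1 by limma with either pseudocount, without both TPC-1 libraries 3 and in the siRNA libraries, 5 with the size offset, and 1 to 3 with single libraries left out, against 2. Those called lower numbered 2 by DESeq2, 4 without a filter, 3 in a fit of only the groups compared, 4 without both TPC-1 libraries 3 and in the siRNA libraries, and 1 to 3 with single libraries left out, against 1. The fits without both TPC-1 libraries 3, with the size offset and in the siRNA libraries were chosen after seeing the data. Calls over all genes, in either direction, also changed with the fit. They numbered 13101 of 38290 without a filter, 8151 of 12017 at a mean FPKM of at least 1 and 12299 of 17447 with the size offset. In a fit of only the groups compared 12256 of 17447 were called, and 11773 of 18067 without both K1 libraries 3. Without both TPC-1 libraries 3 the calls numbered 11557 of 17990. Of 17447 genes, DESeq2 called 11966, and limma 11805 with a pseudocount of 0.1 and 11679 with 1. In the siRNA libraries 11917 of 17447 were called. With single libraries left out, calls ran from 10953 of 17954 to 12513 of 18051.

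With the size offset the median between the lines was -0.02 for nuclear and 0.44 for mitochondrial genes, and COX8A reversed to 0.29. Without both K1 libraries 3 the K1 knockdown median was -0.48 for nuclear genes and -0.36 for nuclear minus mitochondrial. The medians of the knockdown difference, K1 minus TPC-1, were then -0.57 and -0.24. The cause was not tested. The other medians moved by no more than the replicate spread (0.29 nuclear, 0.36 mitochondrial, log2). The nuclear median of the knockdown difference moved by about as much as that spread without K1 siRNA library 3 (-0.41, against -0.12). Of 3083 single-gene values over alternatives, 2832 kept their direction and side of the threshold. Most of the 3083 are knockdown values, for which no gene was called under any setting, so this count says little about the calls between lines. A call was lost in 14 values, gained in 37 and reversed in 1, all between the lines. Direction changed without a call in 199.

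With the replicate number as a block, 25 nuclear genes were lower and 2 higher and 3 mitochondrial genes higher and 1 lower between the lines. Of all 17447 genes, 11678 were called between the lines in that fit, in either direction. In the knockdowns 0 of all genes were called. Samples with the same number did not deviate together in all pairs (correlations 0.38, 0.09 and 0.41 in TPC-1, -0.49, 0.09 and -0.53 in K1), so the numbers were not taken as pairs. In K1, samples of unlike number deviated together, siRNA 1 with control 3 (0.45) and siRNA 3 with control 1 (0.58). The other pairs of unlike number lay between -0.36 and 0.32 in K1, and all of them between -0.41 and 0.06 in TPC-1.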
